A study of Mus musculus with 8 samples.

Results

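The genes described are 10 that move bicarbonate, chloride or protons, or set pH, in epithelia: the bicarbonate carriers Slc4a2 and Slc4a4, the anion exchangers Slc26a1, Slc26a3, Slc26a4, Slc26a6 and Slc26a7, the carbonic anhydrases Car2 and Car6, and the anion channel Cftr. They were chosen by symbol. The array's annotation assigned them 12 of its 25697 probes, with 2 probes each for Slc26a7 and Car2 and 1 for each of the rest, and they are 10 of the 16593 genes named on the array. The KO group consisted of mice on a C57BL/6 background, 10 weeks of age, with both Med1 alleles floxed (MED1 fl/fl) and a Cre transgene driven by the keratin 14 (K14, Krt14) promoter, whose incisors grew hairs and lacked enamel. The CON group consisted of littermates of the same background and age that also carried MED1 fl/fl but no Cre and formed enamel. In both groups dental tissue at the position of the maturation (Mat) stage was dissected from lower incisors and the tissue of 3 mice was combined. RNA of 4 KO and 4 CON samples was hybridised to Illumina MouseRef-8 v2.0 bead arrays. Med1 encodes a subunit of the Mediator complex, which links transcription factors to RNA polymerase II, and K14-driven Cre acts in every epithelium that uses this promoter, skin and oral mucosa included.

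Enamel hardens at the Mat stage, when ameloblasts withdraw the enamel proteins and the crystals thicken. Crystal growth releases protons, and ameloblasts are known to neutralise them with bicarbonate that carbonic anhydrases make inside the cell and that exchangers and channels carry to the enamel side in return for chloride. SLC4 proteins are placed mostly in the basolateral membrane of such epithelia, and SLC26 exchangers and Cftr mostly in the apical membrane, where Cftr returns the chloride that the exchangers take up.

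The promoters of 8 of the 10 genes, 11 in all, were matched by symbol in RefSeq sequence of build GRCm38.p6. No promoter was found in this way for Car2 and Slc26a7, which were also lower in KO, so they are left out of what follows here. Shown here, 5′ to 3′, are those of 3 genes that were lower in KO (Slc26a4, Cftr, Slc26a6) and of 1 gene with no difference past the threshold (Slc4a2), so that the sequences in front of genes that moved together and of one that did not can be read side by side. Each runs from 250 bases before the annotated start to 50 bases after it, and capitals mark the motif matches.
Slc26a4, chr12:31559935-31560234, minus strand: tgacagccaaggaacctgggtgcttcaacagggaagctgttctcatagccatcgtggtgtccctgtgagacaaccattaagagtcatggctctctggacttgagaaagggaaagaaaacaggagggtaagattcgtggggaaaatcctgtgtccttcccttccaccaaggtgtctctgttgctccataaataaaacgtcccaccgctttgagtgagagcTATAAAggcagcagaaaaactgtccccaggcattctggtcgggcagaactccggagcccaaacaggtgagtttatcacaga
Cftr, chr6:18170437-18170736, plus strand: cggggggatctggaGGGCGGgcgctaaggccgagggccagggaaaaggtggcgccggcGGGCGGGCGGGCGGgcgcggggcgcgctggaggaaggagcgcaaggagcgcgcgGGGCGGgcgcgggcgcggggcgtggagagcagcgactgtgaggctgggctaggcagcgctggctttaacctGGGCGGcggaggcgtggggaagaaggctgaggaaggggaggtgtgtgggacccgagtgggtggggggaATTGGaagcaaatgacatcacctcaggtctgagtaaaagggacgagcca
Slc26a6, chr9:108853793-108854092, plus strand: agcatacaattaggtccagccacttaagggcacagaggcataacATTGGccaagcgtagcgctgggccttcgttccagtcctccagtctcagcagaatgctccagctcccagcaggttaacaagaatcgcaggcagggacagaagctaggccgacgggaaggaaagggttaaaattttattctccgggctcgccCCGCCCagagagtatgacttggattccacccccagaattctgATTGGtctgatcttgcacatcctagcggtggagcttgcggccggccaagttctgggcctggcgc
Slc4a2, chr5:24424982-24425281, plus strand, the first of its 2 listed promoters: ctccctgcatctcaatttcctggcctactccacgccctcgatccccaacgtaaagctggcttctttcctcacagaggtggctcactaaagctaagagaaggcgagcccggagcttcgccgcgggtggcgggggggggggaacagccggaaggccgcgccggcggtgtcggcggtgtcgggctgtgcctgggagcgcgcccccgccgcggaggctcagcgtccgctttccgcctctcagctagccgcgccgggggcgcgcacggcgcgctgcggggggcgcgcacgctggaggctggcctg
The motifs searched on both strands were the TATA box (TATAAA), the GC box (GGGCGG), the CCAAT box (CCAAT), a forkhead core (GTAAACA), a nuclear receptor half-site (AGGTCA), a CRE (TGACGTCA) and an AP-1 site (TGAGTCA), none of which contains another. The Slc26a4 promoter held a TATA box 31 bases before the start and no other of these motifs, and its GC content lay below the median of 52.7% over all 32851 promoters. The Cftr promoter held no TATA box but 6 GC boxes, of which 3 overlap in 1 run, and a CCAAT box, at a GC content of 71.3%. The Slc26a6 promoter held 1 GC box and 2 CCAAT boxes at 56.0% GC. The Slc4a2 window shown held none of the motifs at 72.0% GC, whereas the second Slc4a2 promoter, not shown, held 2 nuclear receptor half-sites. Of all promoters 13.6% held the TATA box, 35.7% the GC box and 37.4% the CCAAT box, and 3.65%, 16.3%, 1.79% and 5.2% held the forkhead core, the nuclear receptor half-site, the CRE and the AP-1 site in that order. None of the 7 motifs was shared by all 3 promoters shown of genes that were lower in KO. Slc26a1, also called lower, has 2 listed promoters that are not shown. The first held an AP-1 site. The second held a CCAAT box, a forkhead core, a nuclear receptor half-site and a TATA box sequence on the opposite strand, 240 bases before the start.

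Array means lay between 550.8 and 811.9 intensity units, and 11554 to 13134 probes were detected on an array, that is, had a detection p-value under 0.01 against the negative control beads. Arrays of a group correlated at 0.994 to 0.995 and arrays of different groups at 0.962 to 0.967 across all probes on the array, those at background included. The study's methods speak of samples that each combine several mice where they describe the dissection, but nothing in the labels says that each array had its own pool, so the spread behind the p-values is that between arrays and may be technical. Med1 itself averaged a log2 level of 7.54 ± 0.18 in KO and 8.30 ± 0.25 in CON (SD, n = 4 each), 1.69-fold lower in KO (adjusted p = 0.000746, limma), on a probe whose place relative to the deleted exons is not given in the files used here, so that it does not check the deletion as such. Levels are background-corrected, quantile-normalised log2 intensities, and differences are KO minus CON with their SE. The study asked what the loss of Med1 does to gene expression in this tissue. Of the 12838 probes tested, 59.7% passed an adjusted p of 0.05 in either direction, 2878 (22.4%) higher and 4787 (37.3%) lower in KO, with a median difference of -0.14. With cyclic loess in place of quantile normalisation the split was 3731 higher against 2850 lower and the median 0.02, so the direction of small differences depended on the scaling.

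Of the 10 transport genes, 7 had a tested probe, and each of these was detected on all 8 arrays, so that none entered through 1 group alone. Among the 7, Slc26a4, Slc26a7, Cftr, Car2, Slc26a6 and Slc26a1 were lower in KO and Slc4a2 was not called. Over all 9085 genes tested 60.9% were called, with 36.5% lower in KO and 24.4% higher. The KO and CON arrays did not overlap for the 6 genes called, as for 56.8% of all genes. The difference was over 2-fold for 4 of the 7, against 4.08% of all genes lower by that much. The median difference of the 7 was -1.24, against -0.12 over all tested genes. Slc4a4 was detected on 1 array, and Slc26a3 and Car6 on none. In dissected tissue of this kind, fewer cells of a type and less RNA per cell cannot be told apart.

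**Figure D1:**
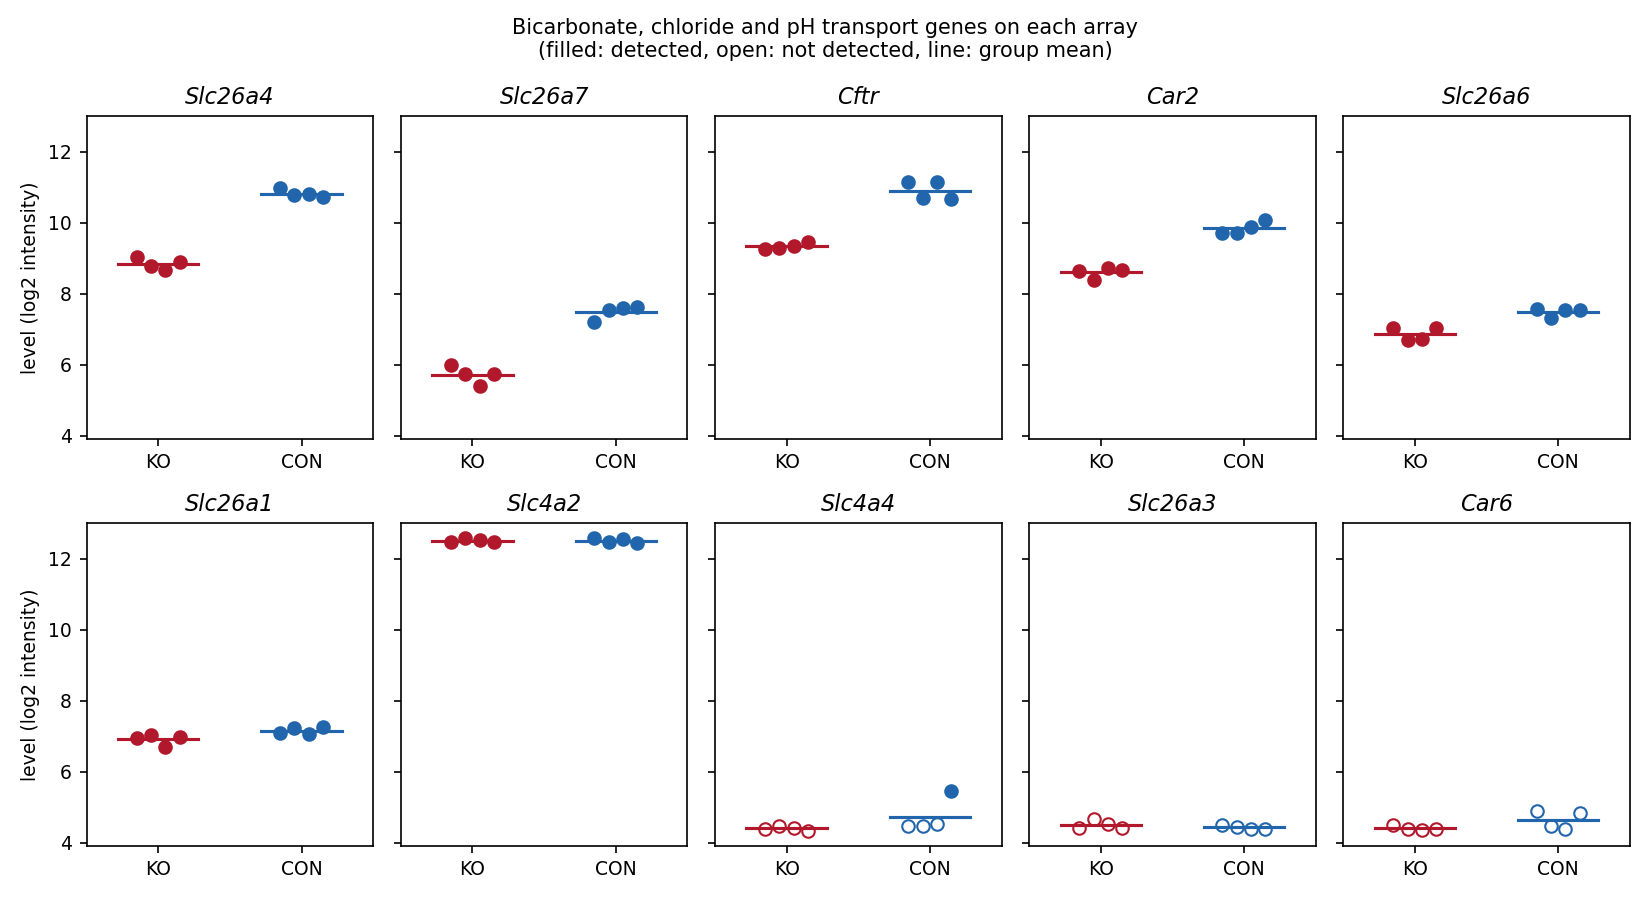
Log2 level of each of the 10 genes on every array, KO at the left and CON at the right of each panel, with filled points where the probe was detected, open points where it was not, and a line at the group mean. The 4 KO points of Slc26a4, Slc26a7, Cftr, Car2 and Slc26a6 lie below all 4 CON points, Slc4a2 is level between the groups, and Slc26a3 and Car6 are open throughout.

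Of the bicarbonate carriers, Slc4a2 encodes AE2, which exchanges chloride for bicarbonate across the basolateral membrane of many epithelia. Its probe read 5412.8, 7995.9, 4963.3 and 5496.0 intensity units on the KO arrays and 5659.7, 5397.3, 6210.2 and 6266.5 on the CON arrays. The highest value came from the KO array whose mean over all probes was also highest, and the groups overlapped. After normalisation Slc4a2 averaged 12.51 ± 0.05 in KO and 12.51 ± 0.06 in CON on the log2 scale (SD, n = 4 each). The difference was -0.0004 ± 0.07 (SE), with an adjusted p of 0.996 (limma). It lay between -0.16 and 0.08 over 22 alternative settings, so its sign turned with the processing and no direction is given.

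Slc4a4 encodes NBCe1, which carries sodium together with bicarbonate and in many epithelia brings bicarbonate in from the blood side. Its probe stayed at the background of the array, with 114.4, 135.1, 111.7 and 111.8 intensity units in KO and 115.9, 118.0, 122.9 and 154.0 in CON. The last CON array was the only one of the 8 on which the probe was detected. The gene was therefore not tested, and at this signal a difference was not detectable.

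Car2, the soluble carbonic anhydrase of the cytosol that turns carbon dioxide and water into bicarbonate and a proton, was lower in KO. Its brighter probe read 478.7, 584.2, 440.8 and 491.3 intensity units in KO and 840.1, 859.2, 1068.0 and 1307.0 in CON. Every KO array lay below every CON array, and the CON arrays were spread more widely than the KO arrays. On the log2 scale Car2 averaged 8.60 ± 0.15 in KO and 9.84 ± 0.17 in CON (SD, n = 4 each), a difference of -1.24 ± 0.11 (SE) or 2.36-fold (adjusted p = 5.2e-06, limma). The second Car2 probe was detected on none of the arrays and averaged 4.56 in KO and 4.58 in CON, so the fall rests on 1 probe. Car6, the carbonic anhydrase that salivary glands secrete, read 119.2, 131.1, 108.6 and 114.9 units in KO and 126.5, 117.1, 116.6 and 137.0 in CON, and was not detected on any array.

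Among the SLC26 exchangers the largest fall was that of Slc26a4, which encodes pendrin, an exchanger of chloride for bicarbonate or iodide known from the inner ear, thyroid and kidney. It read 603.3, 736.2, 428.7 and 549.8 intensity units in KO and 1894.0, 1729.5, 1938.4 and 2006.7 in CON. The highest KO array remained far below the lowest CON array. Slc26a4 averaged 8.84 ± 0.15 in KO and 10.82 ± 0.10 in CON on the log2 scale (SD, n = 4 each). The difference of -1.97 ± 0.09 (SE) was 3.92-fold (adjusted p = 5.67e-08, limma), and it kept between -2.11 and -1.73 over the 22 alternatives.

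Slc26a3, which encodes the chloride-bicarbonate exchanger of the colon, lies close to Slc26a4 on chromosome 12, with the protein-coding gene Cbll1 and the long non-coding RNA Gm40362 between them in RefSeq. Its probe read 115.5, 145.4, 115.5 and 116.9 intensity units in KO and 117.2, 116.3, 117.3 and 121.4 in CON and was detected on none of the 8 arrays. Signal above background at these 2 neighbouring family members was thus seen for Slc26a4 alone.

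Slc26a7, a chloride-bicarbonate exchanger and chloride channel of kidney, stomach and thyroid, fell as well. Its brighter probe read 166.1, 190.6, 136.0 and 156.7 intensity units in KO and 223.7, 261.8, 296.3 and 321.1 in CON. The groups did not overlap, although the KO values were close to background. On the log2 scale it averaged 5.72 ± 0.24 in KO and 7.49 ± 0.19 in CON (SD, n = 4 each), a difference of -1.77 ± 0.13 (SE) or 3.42-fold (adjusted p = 1.75e-06, limma). Since the probe is dim, the size depended on the background step, and without background correction the difference was -0.79 (adjusted p = 4.26e-08, limma), a smaller one than those of Cftr and Car2 there. The second Slc26a7 probe was detected on 0 KO and 3 CON arrays, at 120.8, 130.4, 120.2 and 123.1 units in KO and 145.6, 140.2, 146.6 and 157.2 in CON. It was too dim to be tested, and its KO arrays also lay below its CON arrays.

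Slc26a6, the chloride, oxalate and bicarbonate exchanger of intestine, kidney and pancreas, read 232.5, 265.1, 188.4 and 232.7 intensity units in KO and 259.1, 239.9, 291.3 and 309.1 in CON. These raw values overlapped, through the brightest KO array and the dimmest CON array, while the normalised levels did not. The log2 level averaged 6.87 ± 0.18 in KO and 7.49 ± 0.12 in CON (SD, n = 4 each), a difference of -0.63 ± 0.10 (SE) or 1.54-fold (adjusted p = 0.000551, limma). It was -0.34 without background correction, -0.36 on the authors' normalised values and -0.39 with cyclic loess, and stayed past the threshold in each. Slc26a1, which exchanges sulfate or oxalate for bicarbonate, read 225.6, 305.8, 187.5 and 228.6 intensity units in KO and 212.6, 230.2, 235.6 and 273.7 in CON. The mean raw signal was nearly the same, 236.9 in KO and 238.0 in CON, and only the normalised levels separated, at 6.91 ± 0.15 in KO and 7.16 ± 0.10 in CON on the log2 scale (SD, n = 4 each). The difference of -0.24 ± 0.09 (SE) passed the threshold narrowly (adjusted p = 0.0424, limma), kept its call in 9 of 22 alternatives and was 0.01 with cyclic loess (adjusted p = 0.924, limma).

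Cftr encodes the chloride and bicarbonate channel whose loss causes cystic fibrosis. It read 687.0, 989.8, 617.0 and 763.2 intensity units in KO and 2116.4, 1653.1, 2411.2 and 1897.9 in CON. The groups were well apart, and the CON arrays varied more than the KO arrays. On the log2 scale Cftr averaged 9.33 ± 0.09 in KO and 10.90 ± 0.27 in CON (SD, n = 4 each), a difference of -1.57 ± 0.12 (SE) or 2.96-fold (adjusted p = 2.78e-06, limma).

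The falls were not of 1 size. Within arrays, the difference of Slc26a4 minus that of Slc26a7 was -0.20 ± 0.15 (SE), that of Slc26a7 minus Cftr was -0.20 ± 0.24, and that of Cftr minus Car2 was -0.33 ± 0.20, and in each of these 3 pairs the KO and CON arrays overlapped. With this background step, neighbours among these 4 thus did not differ beyond their spread. The steps beside Slc26a7 turned with it, since without background correction the differences were -1.73 for Slc26a4, -1.41 for Cftr, -1.02 for Car2 and -0.79 for Slc26a7 (SE 0.07, 0.10, 0.08 and 0.06 in that order). The difference of Car2 minus that of Slc26a6 was -0.61 ± 0.12 and that of Slc26a6 minus Slc26a1 was -0.38 ± 0.14, with arrays that did not overlap in either pair. Slc26a1 and Slc4a2 overlapped, at -0.24 ± 0.11. These steps compare probes of unlike brightness, and the background correction acts more strongly on dim probes.

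**Figure D2:**
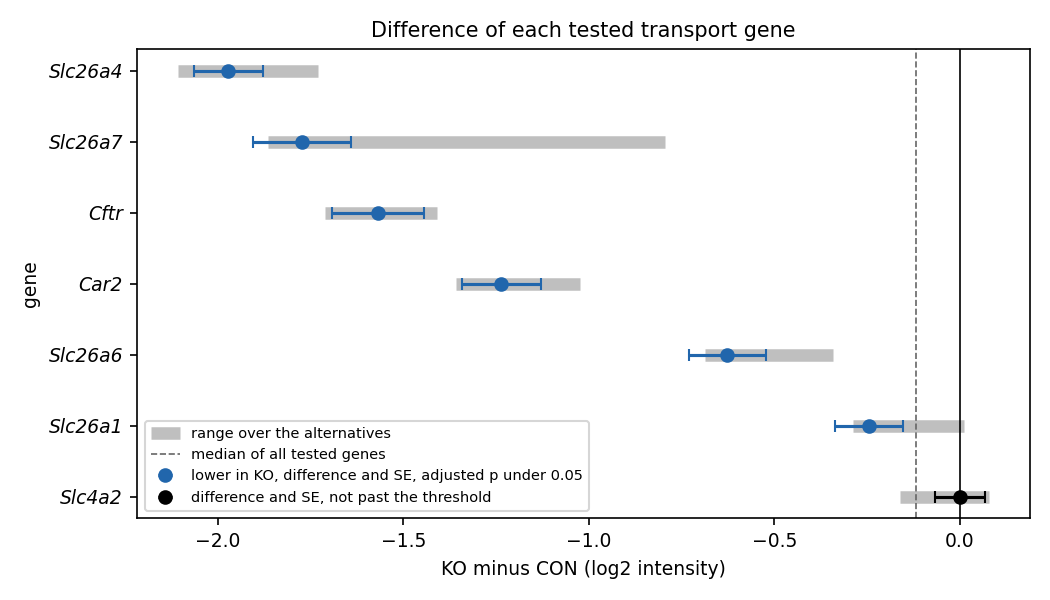
KO minus CON difference in log2 intensity of the 7 tested genes, with points for the fitted difference, whiskers for its SE, grey bars for the range over the alternative settings and a dashed line at the median of all tested genes. Slc26a4, Slc26a7, Cftr and Car2 lie beyond -1, the bar of Slc26a7 reaches to -0.79, and the bars of Slc26a1 and Slc4a2 cross 0.

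Profiles like that of Slc26a4 were sought among the 7814 other genes detected on all 8 arrays, by the root mean square distance of the levels over the 8 arrays, each gene centred on its own CON mean. The nearest were Hs3st6 and Hs3st3a1, which encode heparan sulfate sulfotransferases, at distances of 0.056 and 0.091 log2 units, the pannexin channel gene Panx3 at 0.091 and the forkhead factor gene Foxo1 at 0.095. Their differences were -1.93, -1.93, -1.97 and -1.85, beside -1.97 for Slc26a4 itself. The distance takes in the difference between the groups, so this closeness follows from how the genes were picked.

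The tissue dissected is a mixture, so markers of the cell types it may hold are given with these values. Of the ameloblast markers 7 were tested and detected in both groups, 3 higher, 2 lower and 2 not called, and Wdr72 was at background on all arrays. The summed level of that list was 50870 to 56520 in KO and 44760 to 47670 in CON, most of it from Ambn. Ambn, Amelx and Enam are enamel matrix proteins made chiefly at the earlier secretory stage. Without them, a choice made after the values were seen, 4 markers remained (Klk4, Slc24a4, Alpl and Mmp20), 1 higher, 2 lower and 1 not called, with a summed level of 16500 to 17710 in KO and 14080 to 15650 in CON. The largest part of that sum came from Klk4, the 1 higher, at a log2 level of 13.49 in KO and 12.84 in CON. Alpl, the next brightest of these 4, went the other way, at 11.80 in KO and 12.28 in CON. The brightest, Ambn, an enamel matrix protein, differed by 0.31 (adjusted p = 0.00574, limma), a call lost with median scaling and cyclic loess. Klk4, a protease of the Mat stage, differed by 0.65 (adjusted p = 1.91e-05, limma) and Enam, another matrix protein, by 1.14 (adjusted p = 8.6e-05, limma). Alpl, alkaline phosphatase, was lower (difference -0.49, adjusted p = 0.00183, limma) and the calcium exchanger gene Slc24a4 too (-0.18, adjusted p = 0.0326, limma), the last with a call lost under cyclic loess. Markers of other cells moved too, and Krt1, Cd163, Acp5 and Dcstamp among them were detected on 4 KO and 0 CON arrays, so that they could be tested only through KO. Over all genes tested 24.4% were higher in KO and 36.5% lower. All 5 tested cornified epidermis markers were higher in KO (summed level 48140 to 50680 in KO and 2222 to 3109 in CON, with Ivl and Krt2 at background), as were all 8 macrophage markers (26130 to 28500 in KO and 3043 to 3242 in CON) and all 7 skeletal muscle markers (28760 to 33130 in KO and 8325 to 9666 in CON). The 5 tested osteoclast markers were higher (15810 to 17760 in KO and 5117 to 5364 in CON, with Calcr, Ocstamp and Atp6v0d2 at background), and so were the 3 tested red blood cell markers (21580 to 26760 in KO and 14120 to 16640 in CON, with Rhag at background). Endothelial markers were higher for 4 of 7 (7270 to 8449 in KO and 5319 to 5994 in CON, with Kdr at background) and fibroblast and odontoblast markers for 3 of 6 (43550 to 51360 in KO and 35960 to 37400 in CON, with Dspp and Dmp1 at background), and none of either list was lower.

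Salivary gland ducts also express Cftr, Car2 and SLC26 exchangers, and of 8 tested salivary markers 3 were higher and 5 lower in KO (summed level 1693 to 1857 in KO and 1743 to 2079 in CON, with Smr3a and Lpo at background). The median of the list was -1.01. The largest change was that of Scgb2b24, a secretoglobin detected on 1 KO and 4 CON arrays, at 5.02 in KO and 9.30 in CON (adjusted p = 8.24e-09, limma). Dcpp2, detected on 0 KO and 4 CON arrays and so tested only through CON, was at least 5.203-fold lower in KO with this background step. Its close copies Dcpp3 (-3.19) and Dcpp1 (-1.52), whose probes may share signal with Dcpp2, were also lower, each detected on 1 KO and 4 CON arrays. These sizes depended on the background step. Without background correction the differences were -2.30 for Scgb2b24, -1.43 for Dcpp3, -1.11 for Dcpp2 and -0.51 for Dcpp1. Prol1 (3.68, adjusted p = 2.14e-09, limma) and Bpifa2 (0.87, adjusted p = 1.5e-05, limma) were higher, at 2.16 and 0.72 without background correction. The part of any of these cell types in the differences of the transport genes was not tested.

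**Figure D3:**
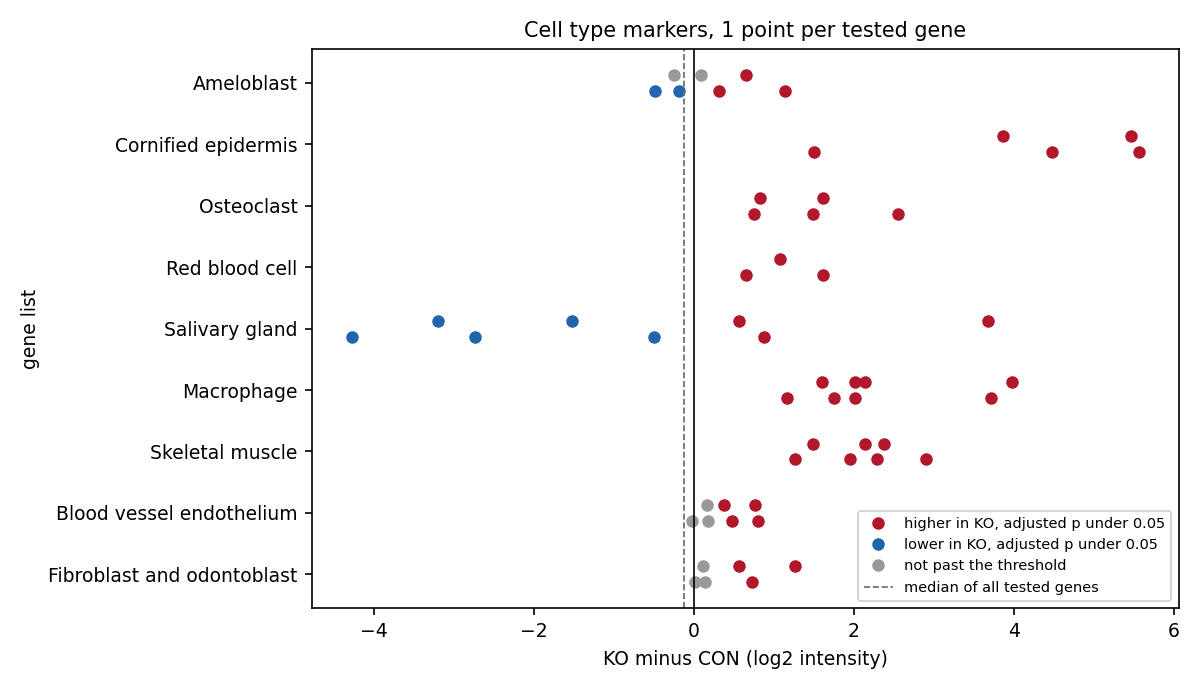
KO minus CON difference in log2 intensity of each tested marker gene, in 1 row per cell type list, with red points higher and blue points lower in KO past the threshold, grey points not past it and a dashed line at the median of all tested genes. All points of the macrophage, skeletal muscle, osteoclast, red blood cell and cornified epidermis rows lie above 0, the ameloblast row has points on both sides, and the salivary row is the widest below 0.

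Other genes of acid, base and chloride transport were read from lists chosen by function. Of 86 such genes on the array, 40 were at background on all 8 arrays and 42 were tested, of which 12 were higher in KO, 17 lower and 13 not called, with a median of -0.13. Over all 9085 genes tested 24.4% were higher and 36.5% lower, with a median of -0.12, so the counts of these lists lay near the general shares. Among the calls of these lists, Slc26a9, Car14, Slc16a3 and Gpr65 were detected on KO arrays alone, so their direction was fixed by the filter. On the authors' normalised values 13 were higher and 17 lower, and with cyclic loess 15 were higher and 12 lower.

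In the remaining SLC4 family 4 genes were tested. Slc4a1, band 3 of the red blood cell, was 3.05-fold higher in KO, at a log2 level of 9.42 ± 0.18 in KO and 7.81 ± 0.12 in CON (SD, n = 4 each; adjusted p = 5.27e-07, limma), beside the red blood cell markers given above, a list to which it also belongs. Slc4a9 (difference -0.83, adjusted p = 0.000344, limma) and Slc4a3 (-0.59, adjusted p = 0.000767, limma), both anion exchangers, were lower, and Slc4a8 was not called at -0.19. Slc4a9 was detected on 2 of the KO arrays, and its difference was -0.27 on the authors' normalised values and -0.25 without background correction. Slc26a9, a chloride channel of airway and stomach, was the 1 gene of 5 further SLC26 genes above background, on 4 KO and 0 CON arrays. With this background step its level in KO was at least 1.34-fold higher, and its log2 difference was 0.41 without background correction. Here "at least" sets the KO mean against the higher of the probe's own CON value and the lowest detected signal on each array. Slc26a4, Slc26a6 and Slc26a7 were lower in KO, as given above. Of 6 other carbonic anhydrases tested, the mitochondrial Car5b was higher (1.25, adjusted p = 3.5e-07, limma) and the cytosolic Car13 lower (-0.35, adjusted p = 0.0007, limma). The membrane-bound Car14 was also called higher, at least 1.14-fold with this background step. Car14 was detected on 4 KO and 0 CON arrays and, like Slc26a9, could be tested only through KO. Its log2 difference was 0.19 without background correction. Car3, Car11 and Car12 were not called, at -0.19, -0.10 and 0.19.

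Of the SLC12 family, which includes cotransporters that load or empty the cell of chloride together with cations, 4 of 6 tested were lower. Over all genes tested 36.5% were lower. Slc12a8 (difference -1.28, adjusted p = 5.66e-07, limma), the potassium-chloride cotransporter Slc12a7 (-1.25, adjusted p = 2.58e-05, limma), Slc12a9 (-0.69, adjusted p = 2.66e-05, limma) and Slc12a4 (-0.64, adjusted p = 0.00471, limma) fell, the last with a call lost under cyclic loess. Slc12a2, the NKCC1 cotransporter that loads chloride in secretory cells, was higher at 0.34 (adjusted p = 0.00722, limma), a call lost with median scaling, and Slc12a3 was not called at -0.13. Of 6 other chloride channels and transporters tested, 1 was called, Clcn3 at -0.34 (adjusted p = 0.0465, limma), with overlapping arrays and no call under cyclic loess. A second Clcn3 probe of similar brightness was not called, at 0.06 (adjusted p = 0.643, limma), so the probes of this gene disagree.

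The regulators of these carriers include the WNK kinases, the kinase SPAK that they activate, and IRBIT, which is known to bind and activate bicarbonate carriers and Cftr. Of 10 tested, 6 were lower and 1 higher, where 36.5% and 24.4% of all genes were. Wnk4 (-1.25, adjusted p = 3.04e-05, limma), the IRBIT relative Ahcyl2 (-1.07, adjusted p = 6.43e-05, limma), Wnk2 (-1.06, adjusted p = 5.21e-05, limma) and IRBIT itself, Ahcyl1 (-0.85, adjusted p = 2.34e-05, limma), were lower. Ahcyl1 averaged 11.04 ± 0.14 in KO and 11.89 ± 0.10 in CON on the log2 scale (SD, n = 4 each). Wnk4 and Wnk2 were dim, detected on 2 and 3 KO arrays, and without background correction differed by -0.44 and -0.38, against -1.0047 for Ahcyl2 and -0.81 for Ahcyl1. Stk39, the gene of SPAK, was also lower (-0.80, adjusted p = 0.000107, limma), and the scaffold gene Slc9a3r1 (NHERF1), whose protein anchors Cftr, was higher at 0.40 (adjusted p = 0.00146, limma). Ezr passed the threshold narrowly as lower (-0.39, adjusted p = 0.049, limma), with overlapping arrays and no call under cyclic loess.

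Genes that move or sense protons were called in both directions, and Gpr65, Slc16a3 and Bsg among them passed the filter through 1 group alone. All 3 tested proton pumps and channels were higher in KO, where 24.4% of all genes were, and 6 of the 9 on the array were at background. The 3 were Hvcn1, the voltage-gated proton channel of phagocytes (3.26, adjusted p = 1.97e-08, limma), Atp6v1c2, a subunit of the vacuolar proton pump (2.34, adjusted p = 2.05e-07, limma), and Tcirg1, the pump subunit of osteoclasts (1.66, adjusted p = 6.22e-08, limma). Without background correction they differed by 2.29, 1.265 and 1.42 in that order. The other Tcirg1 probes differed by 0.98, 0.53 and 1.33, and the arrays overlapped for the probe at 0.53. These genes stand beside the macrophage and osteoclast markers given above, which were higher as well, and the part of those cells was not tested. The proton-sensing receptor Gpr65, detected on 4 KO and 0 CON arrays, was at least 1.84-fold higher with this background step. Its log2 difference was 0.79 with an offset of 50, 0.45 on the authors' normalised values and 0.41 without background correction. The level of the acid-sensing channel Asic3, detected by its brightest probe on 4 KO and 2 CON arrays, differed by 1.30 (adjusted p = 1.32e-05, limma). That difference was 0.52 on the authors' normalised values and 0.48 without background correction. Its other probes, detected on 2 and on 3 KO arrays and on 0 CON arrays, were not tested and differed by 0.39 and 0.17. The 5 other genes of that list were at background. Of the sodium-proton exchangers 1 was tested, Slc9a8 at -0.23 (adjusted p = 0.0188, limma), which was -0.001 with cyclic loess and not called there. Of the lactate carriers and their chaperones, Slc16a3 (MCT4) was detected on 4 KO and 0 CON arrays, at mean log2 levels of 5.39 in KO and 4.53 in CON. Bsg, the gene of basigin, which chaperones these carriers to the membrane, was detected by its brighter probe on 0 KO and 4 CON arrays, at 5.10 in KO and 6.19 in CON. Each passed the filter through 1 group alone and lay near the detection limit there, so its call is given with no size. Emb, a second chaperone, was lower by a small amount (-0.25, adjusted p = 0.0212, limma), with overlapping arrays and no call under cyclic loess. Foxi1, Dmrt2 and Hmx2, transcription factors of acid-base transporting cells in kidney or inner ear, were at background on all arrays.

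**Figure D4:**
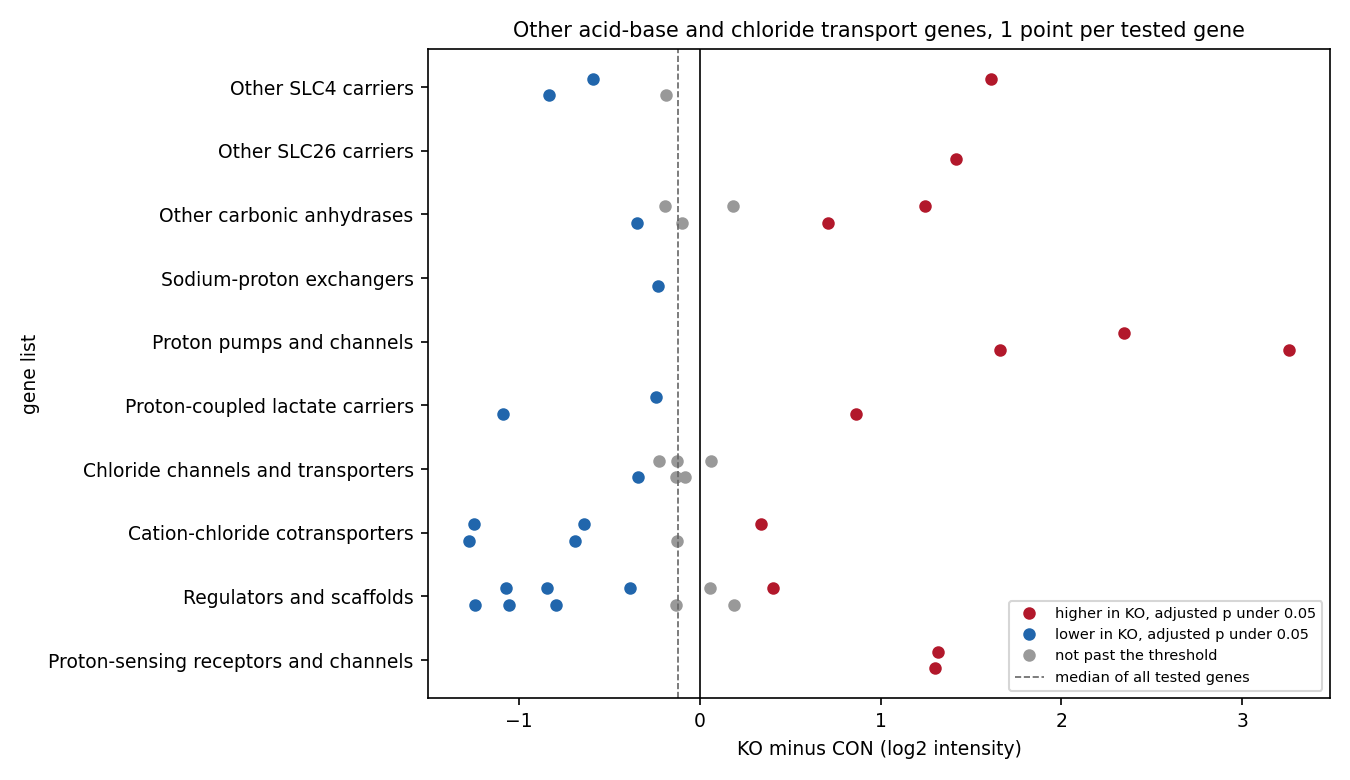
KO minus CON difference in log2 intensity of each tested gene of the other acid-base and chloride transport lists, in 1 row per list, with red points higher and blue points lower in KO past the threshold, grey points not past it and a dashed line at the median of all tested genes. The 3 proton pump and channel points lie between 1.66 and 3.26, whereas the called cotransporters and regulators lie mostly between -1.28 and -0.39.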

How the data were processed

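The authors hybridised labelled total RNA to Illumina MouseRef-8 v2.0 bead arrays and summarised each probe in GenomeStudio (of a version not given in the sources used here). Per probe and array, a linear mean bead intensity, not normalised, was deposited together with a detection p-value. A further deposited table holds the authors' normalised intensity values, used as an alternative. No column of unlabelled samples was found.

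Intensities were processed with neqc in limma 3.58.1 (R 4.3.3; background correction from detection p-values, offset 16, quantile normalisation, log2). Testing was limited to probes detected (p under 0.01) on 4 or more of the 8 arrays. KO and CON were compared with lmFit and eBayes, two-sided, with Benjamini-Hochberg adjustment over all 12838 tested probes at a threshold of 5%. The brightest tested probe stood for a gene. Symbols came from the platform annotation (23978 probes with 1 symbol, 0 with several, 1719 unnamed here), updated through RefSeq where the identifier was held (23962 probes). The fit was also run on simulated levels in which few probes differed and no normalisation step was applied. That run does not bear on how the scaling shapes the differences. Signal above background and the number of arrays limit the precision.

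Members, lists and tests were chosen with earlier results of these data known. All members are named, with Med1, the brightest and most changed markers, and up to 4 called genes of each list by size of difference with non-overlapping arrays. Dcpp1, Dcpp2, Dcpp3, Slc12a9, Stk39, Slc9a3r1, Ezr, Slc12a2, Clcn3, Emb and genes not called were added to complete counts, after their values were seen. Alternatives were other background, offset, scaling, filter, variance, weights, blocks, probe rules, tests and arrays left out. The alternatives for Med1, list genes and the ameloblast list were added after the data were seen. Tables were made with Python 3.11, pandas 2.3.3, numpy 2.4.6 and matplotlib 3.10.9.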

Additional observations from a re-analysis of the deposited data

Results flagged for a closer look

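Of the 24 groups of 4 arrays examined for the 12 probes, 2 had an array that stood apart by Dixon's ratio, and chance alone marks about 1 in 20 groups. In Slc4a4 the fourth CON array was at a log2 level of 5.46 and the other CON arrays at 4.47 to 4.53 (ratio 0.94), and the probe was not tested. In Slc26a6 the second CON array was at 7.32 and the other CON arrays at 7.54 to 7.57 (ratio 0.892), which makes it the CON array nearest to KO.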

How the results depend on the processing

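Slc26a4, Slc26a7, Cftr, Car2 and Slc26a6 kept direction and call in all 22 alternatives, at -2.11 to -1.73, -1.86 to -0.79, -1.71 to -1.41, -1.36 to -1.02 and -0.69 to -0.34. Between 5 and 6 of the 7 transport genes were called, and 5188 (the methods' t-test, unadjusted at 0.005) to 8021 probes. Leaving out 1 array gave 7065 to 7376 probes and 5 to 6 genes. Med1 lay between -0.84 and -0.51 and kept its call in 19. Slc26a1 changed sign to 0.0116 with cyclic loess and lost its call on the authors' normalised values (-0.14), without background correction (-0.13), with median scaling (-0.22), and at an unaltered -0.24 with a variance trend, without the filter on dim probes and in the methods' t-test, unadjusted at the methods' own threshold of 0.005 (p = 0.0347) and after Benjamini-Hochberg. With 1 array left out Slc26a1 lay between -0.29 and -0.17, and lost its call without KO replicate 1, 3 or 4 or CON replicate 2 or 4. Slc4a2 turned to 0.0001 with array weights and 0.0795 with cyclic loess, and lay between -0.0234 and 0.0224 with 1 array left out. The cause was not tested. Same-numbered arrays did not deviate together (correlations -0.01, 0.002, -0.002 and 0.02), so the numbers were not used as pairs. With the replicate block 7390 probes and 6 transport genes were called.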
